A study of Mus musculus with 2 samples.

Results

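Mir149, Mir744, Mir22, Mir652, Mir191 and Mir425 are 6 microRNA genes of mouse cortex that belong to none of the families best known from neurons. They are 6 of the 2202 microRNA genes counted. The first 5 were chosen by their high read counts in these same libraries, with no stated cut-off, and Mir425 was added because it lies beside Mir191. Levels of the 6 genes are therefore given as a description, without a test. The samples were left cerebral cortex tissue of male B6CASTF1/J mice, the first-generation cross of C57BL/6 and CAST/Ei parents, 14 days old. No treatment or engineered allele is named, and the only group held 2 libraries, biological replicates 1 and 2. Both give one donor label with separate tissue records, each of which mentions 3 males without saying whether they were pooled. No label states that the libraries came from separate animals, so their differences may be partly or wholly technical.

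A microRNA gene encodes a hairpin that Drosha and Dicer cut into short mature forms, one from each arm (5p and 3p). A mature form guides an Argonaute protein to messenger RNAs, mainly by pairing of its seed, bases 2 to 8, and lowers their translation or stability. Many hairpins lie in introns or exons of longer host transcripts. In this tissue the better known microRNAs are neuronal ones, such as those that follow activity or differentiation. The 6 genes here are expressed in many tissues: miR-191 is often used as a reference in quantitative PCR, and miR-22 is best known from heart muscle in mouse.

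The 12 mature forms of the 6 genes are shown to make plain that their seeds all differ. They come from the RefSeq annotation of GRCm38.p6, written 5′ to 3′, with the seed in capitals.
miR-149-5p: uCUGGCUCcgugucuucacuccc
miR-149-3p: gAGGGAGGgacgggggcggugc
miR-744-5p: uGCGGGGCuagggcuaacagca
miR-744-3p: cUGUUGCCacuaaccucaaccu
miR-22-5p: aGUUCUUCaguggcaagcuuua
miR-22-3p: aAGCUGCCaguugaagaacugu
miR-652-5p: cAACCCUAggagggggugccauuc
miR-652-3p: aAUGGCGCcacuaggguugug
miR-191-5p: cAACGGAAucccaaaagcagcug
miR-191-3p: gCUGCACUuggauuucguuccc
miR-425-5p: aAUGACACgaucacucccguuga
miR-425-3p: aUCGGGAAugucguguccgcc

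All 12 seeds were distinct, and none of the 12 whole sequences was listed for another gene. A search of the other mature forms in the table found 10 seeds with no partner. The seed of miR-425-5p recurred in miR-489-3p (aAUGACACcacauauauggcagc), whose gene Mir489 was at 0 in each library. A count of 0 sets an upper limit of 0.730 CPM for replicate 1 and of 0.940 CPM for replicate 2. The purine-rich seed of miR-149-3p recurred in forms of 4 genes. Of these, Mir7016 had 20 and 10 counts and Mir1943 had 6 and 2 counts in replicates 1 and 2. Gm27775 and Gm27740 had 0 counts, but they share sequence with another microRNA gene, so their reads could not be placed. Among genes whose reads could be placed, none with a shared seed stood above 20 counts. The counts do not separate the arms, so the level of each mature form is not known here.

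The hairpins lie at 5 places in the genome (mm10). Mir149 (ENSMUSG00000065470.1, chr1:92850378-92850443, plus strand) lies in intron 1 of 8 of Gpc1, 2903 bases from the nearest exon; Gpc1 encodes glypican 1, a heparan sulfate proteoglycan of the cell surface. Mir744 (ENSMUSG00000076460.1, chr11:65734733-65734832, minus strand) lies in intron 3 of 10 of Map2k4, 359 bases from the nearest exon; Map2k4 encodes a kinase that activates JNK. Mir652 (ENSMUSG00000076011.1, chrX:142739000-142739097, plus strand) lies in intron 2 of 6 of Tmem164, which encodes a membrane protein. Introns are numbered in the principal transcript, and no annotated transcript of these 3 hosts has an exon at the hairpin.

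The other 3 hairpins lie in exons. Mir22 (ENSMUSG00000065529.1, chr11:75463716-75463810, plus strand) lies in an exon of both transcripts of its non-coding host Mir22hg and of 1 of 4 transcripts of Tlcd2, a non-coding one. Mir191 (ENSMUSG00000105497.1, chr9:108568319-108568392, plus strand) and Mir425 (ENSMUSG00000065579.1, chr9:108568777-108568861, plus strand) lie 384 bases apart in the single exon of a transcript of the lincRNA 4833445I07Rik. Dalrd3, the host by which this pair was described when it was chosen, starts downstream at chr9:108569886 in GENCODE M21. Mir191 ends 1493 bases and Mir425 1024 bases before it, so in this annotation neither lies inside Dalrd3.

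Total counts on microRNA genes were 4111167 in replicate 1 and 3189903 in replicate 2, which was 36.6% and 36.4% of all reads. Levels are CPM, counts scaled to a library total of 1000000 counts on microRNA genes. Genes with 10 or more counts in both libraries were called detected, and these were 406 genes, all 6 members among them. Reads that matched several genomic positions, 39.1% and 41.4% of all reads, were given to no gene. None of the 6 hairpins shares an 18-base stretch with another microRNA gene, against 90 of the 406 detected genes (22.2%) that do. The tissue label was checked with fixed lists. Of 11 neuron-associated genes 7 were detected, and the 11 summed to 143088 CPM (replicate 1) and 132536 CPM (replicate 2). Mir139 alone held 101560 and 83088 CPM of this. Those not detected were Mir9-2 and the Mir124a genes. Of the 11 genes 8 share sequence with another gene, these undetected ones among them, so the list is an incomplete check. Liver Mir122 stood at 51.8 and 48.0 CPM, and 4 of 5 muscle genes were at 0, although those 4 share sequence with another gene. The remaining muscle gene, Mir206, does not share sequence and was detected, at 20.7 and 23.8 CPM. Vascular and glial lists were present too, such as endothelial Mir126a at 10449 and 13176 CPM. In whole tissue, more cells of a type and more RNA per cell cannot be told apart.

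Together the 6 genes held 370642 of the counts in replicate 1, or 9.02% (exact Clopper-Pearson 95% interval 8.99 to 9.04%), and 249706 in replicate 2, or 7.83% (7.80 to 7.86%). The mean share was 8.42% ± 0.840 (SD, n = 2). The intervals do not overlap. Like every interval and limit given here they describe counting error alone, and they take each read as its own molecule, which cannot be known without molecular identifiers. Of the 25 most abundant genes 5 were members, the same 5 that were chosen by their high counts in these libraries.

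Mir744 led the 6 genes. It had 125821 counts in replicate 1 and 74959 in replicate 2, which is 30605 and 23499 CPM, or 27052 ± 5025 CPM (SD, n = 2). It was the most abundant of the 6 in both libraries and ranked 9 among all genes by mean level.

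Mir149 followed with 113850 counts in replicate 1 and 48845 in replicate 2, or 27693 and 15312 CPM (21503 ± 8754 CPM, rank 11). Replicate 1 was the high one by 1.81 times. Its hairpin was the shortest of the 6 at 66 bases and had the highest GC content at 68.2%, as shown here from RefSeq (chr1:92850378-92850443, plus strand) with both mature forms in capitals.
Mir149 hairpin: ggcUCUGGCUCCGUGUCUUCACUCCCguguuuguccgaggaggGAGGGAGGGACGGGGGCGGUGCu

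The 3p form, towards the 3′ end of the hairpin, holds 15 G among its 22 bases, whereas the 5p form holds 4 G among 23.

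Mir22 had 36546 counts in replicate 1 and 56194 in replicate 2, or 8889 and 17616 CPM (13253 ± 6171 CPM, rank 19). Replicate 2 was the high one by 1.98 times, so Mir22 was number 5 of the 6 genes in replicate 1 and number 2 in replicate 2. Mir652 had 53791 and 35637 counts, or 13084 and 11172 CPM (12128 ± 1352 CPM, rank 20). It lay above Mir191 in both libraries.

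Mir191 had 36857 counts in replicate 1 and 30959 in replicate 2, or 8965 and 9705 CPM (9335 ± 523 CPM). It ranked 25 in each library and by mean level. Mir425 had 3777 and 3112 counts, or 919 and 976 CPM (947 ± 40.2 CPM, rank 109). It was the lowest of the 6 in both libraries and had not been chosen for its own counts.

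**Figure D1:**
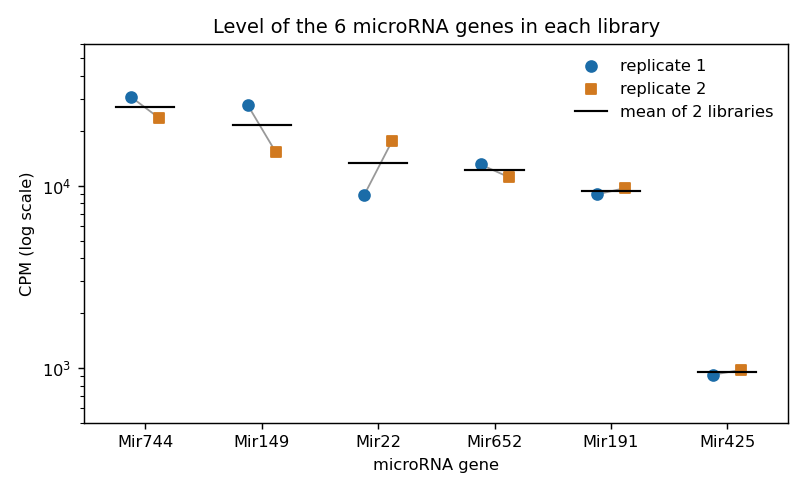
CPM of each of the 6 microRNA genes on a log axis, with a circle for replicate 1, a square for replicate 2 and a bar for the mean of the 2 libraries. Mir744 is highest and Mir425 lowest in both libraries, Mir149 and Mir22 move in opposite directions between the libraries, and Mir191 and Mir425 move least.

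By mean level the order was Mir744, Mir149, Mir22, Mir652, Mir191 and Mir425. The ranges over the 2 libraries overlapped between Mir744 and Mir149 and between Mir149 and Mir22. The range of Mir22 also overlapped those of Mir652 and Mir191. All genes were measured in the same 2 libraries, however. Within each library Mir744 stood above Mir149. In contrast, Mir22 stood in opposite order in the 2 libraries with each of Mir149, Mir652 and Mir191. The ranges did not overlap between Mir652 and Mir191 or between Mir191 and Mir425. The annotated mature forms of a gene add up to 44 or 45 bases, and where in the hairpin the reads lie is not known from the counts. Per annotated mature base the order was the same in replicate 2, while in replicate 1 Mir22, at 202 CPM per base, and Mir191, at 199 CPM per base, changed places.

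Among the 157 detected genes in introns of protein-coding genes, Mir744 was number 3, Mir149 number 5 and Mir652 number 8 by mean level. Mir744 made up 7.69% and 6.52% of the counts of that class in replicates 1 and 2, Mir149 6.96% and 4.25%, and Mir652 3.29% and 3.10%. The median detected gene of the class stood at 78.1 CPM. Mir191 and Mir425 were 2 of 60 detected genes in exons of non-coding genes, whose median was 310 CPM. Median hairpin GC content was 55.0% over the 6 genes and 51.9% over all detected genes. Median predicted folding energy was -0.460 kcal per mol and base over the 6 and -0.433 over all detected genes, and Mir149 had the lowest of the 6 at -0.556 and Mir425 the highest at -0.373.

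Between the libraries the 6 genes did not move together. Mir149 (log2 ratio of CPM, replicate 2 over replicate 1, -0.85), Mir744 (-0.38) and Mir652 (-0.23) were lower in replicate 2. Mir22 (0.99), Mir191 (0.11) and Mir425 (0.09) were higher in replicate 2. The 3 that were lower are the 3 in introns of protein-coding genes, and the 3 that were higher are the 3 in exons. Over all detected genes in such introns 96 of 157 were lower in replicate 2. So were 22 of 60 in exons of non-coding genes. In exons of protein-coding genes, the class to which the annotation assigns Mir22, 34 of 56 were lower. In introns of non-coding genes 16 of 29 were lower, and with no gene on their strand 63 of 104. Most genes were thus lower in every class but exons of non-coding genes, so being lower was not particular to introns of protein-coding genes. Exons of non-coding genes are the class of Mir191 and Mir425, and Mir22 also lies in an exon of its non-coding host Mir22hg. The part of host class in the split of the 6 genes was not tested.

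Whether a gene's counts divided between the libraries in the same proportion as all counts was asked with a two-sided exact binomial test, adjusted by Benjamini-Hochberg over the 406 detected genes at a threshold of 0.05. The test compares 2 libraries with read sampling alone, not conditions. All 6 members passed, 3 lower and 3 higher in replicate 2, against a background of 58.1% of detected genes that passed, 34.7% lower and 23.4% higher. With DESeq2 size factors the background split was 108 lower and 112 higher, in place of 141 and 95, and the 6 members kept their directions. At high counts nearly any gene passes: of 105 detected genes with at least 1000 CPM, 97 did. Passing is therefore no mark of these 6 genes. The adjusted p was 1.70e-118 for Mir652, 4.04e-24 for Mir191 and 0.0244 for Mir425 (exact binomial test), and for Mir744, Mir149 and Mir22 it was too small to be computed as a number above 0. At a threshold of 0.01 Mir425 did not pass.

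The sizes of these differences lay within the range seen over all genes. The median absolute log2 ratio was 0.30 over the 6 genes, 0.21 over the 105 detected genes with at least 1000 CPM, a level that 5 of the 6 reached, and 0.30 over all 406. No member lay over 2-fold apart, against a background of 9.85% of detected genes, but Mir22 was close to that line. With TMM library sizes its log2 ratio was 1.07 and it lay over 2-fold apart; this count was added after its value was seen. Of all detected genes 89.7% had a smaller absolute ratio than Mir22, 86.0% a smaller one than Mir149, 20.2% a smaller one than Mir191 and 14.5% a smaller one than Mir425.

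**Figure D2:**
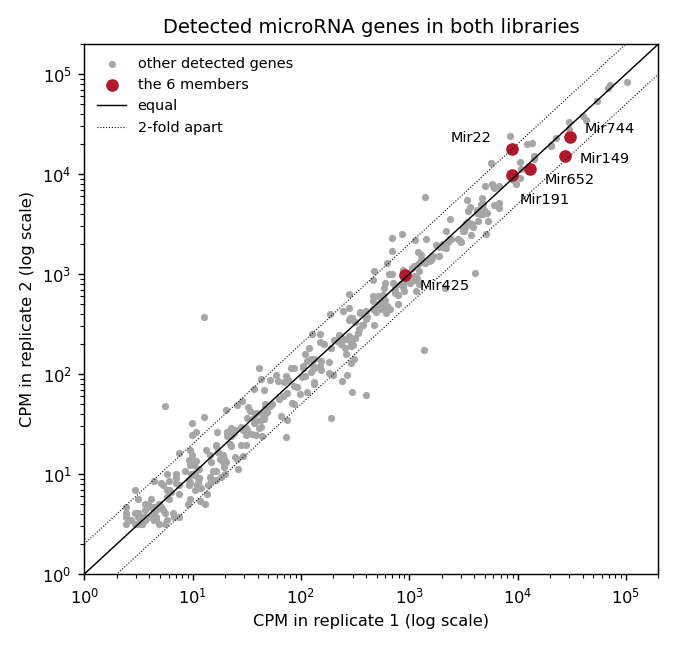
CPM in replicate 2 against CPM in replicate 1, both on log axes, for the 406 detected genes, with the 6 members in red, the line of equal CPM and dotted lines at 2-fold. Mir22 lies just inside the upper dotted line, Mir149 towards the lower one, and Mir191 and Mir425 close to the line of equal CPM.

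**Figure D3:**
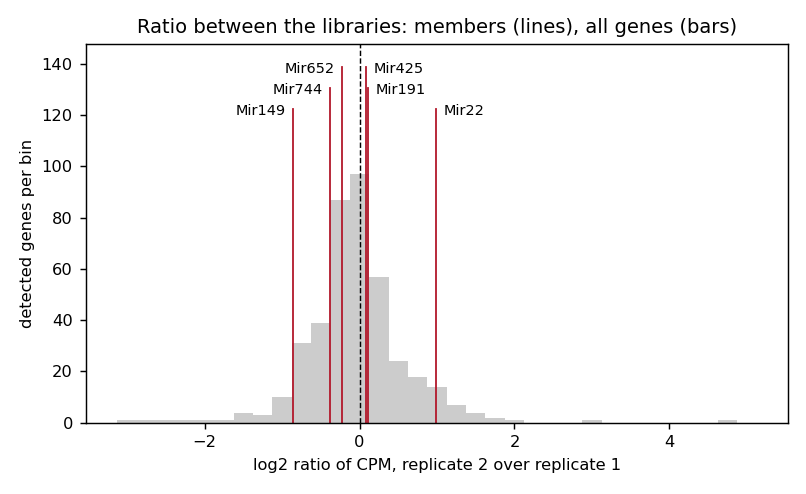
Number of detected genes per bin of the log2 ratio of CPM, replicate 2 over replicate 1 (bars), with a red line at the ratio of each member. The members run from -0.85 for Mir149 to 0.99 for Mir22, with 3 on each side of 0.

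Hairpin GC content was set beside these ratios in 4 groups of 100 to 103 detected genes. In the group of highest GC content, 58.4 to 91.6%, which holds Mir149, 40 genes passed the exact test as lower and 9 as higher. In the group from 51.9 to 58.2%, which holds Mir744, Mir22, Mir191 and Mir425, 37 were lower and 24 higher. In the group from 45.3 to 51.9%, which holds Mir652, 33 were lower and 28 higher. In the group of lowest GC content, which holds no member, 31 were lower and 34 higher. The opposite ratios of Mir744 (56.0% GC) and Mir22 (55.8% GC) stood at nearly the same GC content. Across the 406 genes, which share both libraries, GC content and the ratio were only weakly related (Pearson's r -0.081, Spearman's rho -0.143, given as a description). The part of base composition in the ratio of Mir149 was not tested.

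Mir191 and Mir425 stood in nearly the same ratio in both libraries. Mir191 had 9.76 times the counts of Mir425 in replicate 1 (exact 95% counting interval 9.44 to 10.1) and 9.95 times in replicate 2 (9.59 to 10.3), or 9.85 ± 0.134 (SD, n = 2). The intervals overlap. The hairpins of both genes are shown, since the cluster carries this comparison, with the mature forms in capitals (RefSeq, GRCm38.p6, chr9:108568319-108568392 and chr9:108568777-108568861, plus strand).
Mir191 hairpin: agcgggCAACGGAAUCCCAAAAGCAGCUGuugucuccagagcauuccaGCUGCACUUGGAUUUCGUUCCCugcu
Mir425 hairpin: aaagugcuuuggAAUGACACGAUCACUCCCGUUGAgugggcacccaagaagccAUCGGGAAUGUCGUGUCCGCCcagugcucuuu

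On the log2 scale the ratio of Mir191 to Mir425 changed by 0.03 between the libraries. Over the 107 other pairs of adjacent detected genes on the same strand within 10 kb, 48 of them on chromosome 12, the median change was 0.38, and 6 pairs (5.61%) changed less. Where neither gene shares an 18-base stretch, 3 of 64 other pairs changed less. The 2 genes lay 3.30 apart on the log2 scale, and 65 of the 107 pairs lay closer together. The pairs were not matched on counts. Some of the other pairs hold a gene close to the minimum of 10 counts, whose ratio is the less exact for it. Mir301b, for one, had 4.62 (replicate 1) and 3.76 CPM (replicate 2), against 919 and 976 CPM for Mir425. The part of counting error in the larger changes of the other pairs was not tested. Pairs share libraries and, on chromosome 12, one long cluster, so no p is given.

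**Figure D4:**
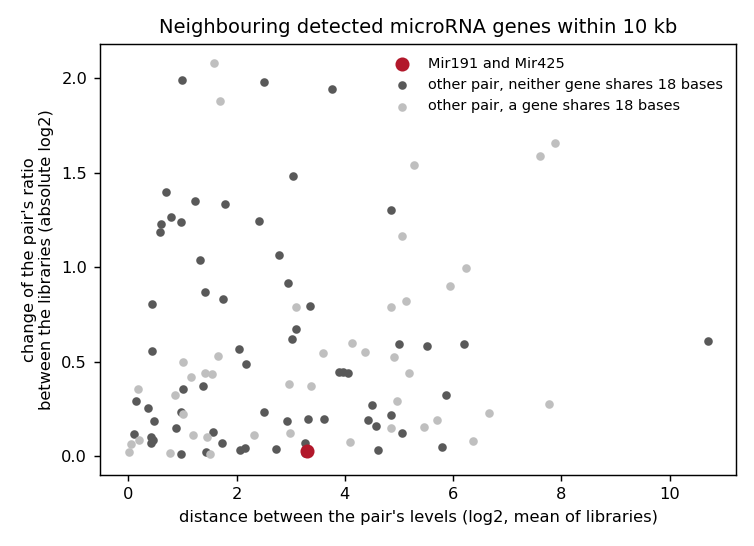
Absolute change of a pair's log2 ratio between the libraries against the distance between its 2 levels (log2, mean of both libraries), for adjacent detected microRNA genes on the same strand within 10 kb. Mir191 and Mir425, in red, sit near the bottom at 0.03, below most pairs at any distance in level. The pairs are not matched on counts.

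Mir191 could be read only with strand. On the opposite strand of its hairpin GENCODE M21 has a microRNA gene, Gm24083 (chr9:108568295-108568414, minus strand), whose 120 bases enclose it. Gm24083 had 0 counts on its own strand in either library, under the same limits as Mir489. In the deposited counts that ignore strand Mir191 is listed at 0 in both libraries, since reads over 2 overlapping genes go to neither. Its 36857 and 30959 reads equal 13.0% and 14.2% of the reads set aside there as ambiguous. Of 26 detected genes with a microRNA gene on the opposite strand, 23 are at 0 in both libraries in those counts. The other 5 members have no such partner and kept identical counts. No read lay on the strand opposite to any of the 6 members in either library.

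For each member the 2 detected genes nearest in level were found by their distance in log2(CPM + 1) over the 2 libraries; with 2 points this says that they stood at like levels, and no more. Mir652 had the closest neighbour, Mir125a at 12559 and 10898 CPM (distance 0.07), followed by Mir541. Mir191 stood nearest to Mir324, at 9122 and 8747 CPM (0.15), and to Mir137. Mir744 lay nearest to Mirlet7d and Mirlet7e, at distances of 0.27 and 0.43. Mir149 and Mir22 had the most distant first neighbours, 0.54 for Mir149 with Mir382, then Mir433, and 0.46 for Mir22 with Mir298, then Mir126a. Mir298, the nearest to Mir22, was likewise higher in replicate 2, at 8509 and 24157 CPM. Mir425 lay nearest to Mir146, at 881 and 1090 CPM, and to Mir28a, both of which share sequence with another gene.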

How the data were processed

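The deposited files hold unnormalized whole-number counts of reads for each microRNA gene, in 3 columns (strand ignored, the gene's strand, the opposite strand). The descriptions deposited beside the files name mm10 and GENCODE M21; the aligner and the counter are not given in the sources used. All 2202 gene IDs matched GENCODE M21. The 4 rows that name no gene, among them unmapped reads (19.1% and 17.5% of all reads), stayed out of the totals. The 6 hairpins were identical in GENCODE and RefSeq (GRCm38.p6). Counts on the gene's strand were scaled to CPM with the sum over genes as total. A count of 0 allows up to 3 counts. Hosts are annotated genes on the same strand, and folding energies come from RNAfold 2.7.2. Exact binomial tests used SciPy 1.17.1, and TMM and size factors edgeR 4.0.16 and DESeq2 1.42.0 on detected genes. The coefficient of variation that edgeR calls biological (406 genes) was 0.308. It describes the spread between these 2 libraries, which may be partly or wholly technical.

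With 1 group of 2 libraries an exact sign-flip test over samples cannot go below p = 0.5, and no test over samples was run. The members and lists were chosen with earlier results of these data known. Named genes are the members, the 2 detected genes nearest to each in level, genes that share a seed, neighbours within 10 kb and the tissue lists.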

Additional observations from a re-analysis of the deposited data

How the results depend on the processing

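Leaving out Mir744, the leading member, gave 5.88% for the summed share, since its own counts then drop out of the sum. Leaving Mir139, the most abundant gene of all, out of the total gave 9.29%, and the share of all reads in the files was 3.08%; both follow from the changed total. The ratio of Mir191 to Mir425 is 0 in counts that ignore strand, since Mir191 then loses its reads. Leaving out a replicate gave 7.83 to 9.02% for the share and 9.76 to 9.95 for the ratio; with 2 libraries these are the other library's values and say nothing about stability. Under the 7 alternatives of the exact test 5 or 6 members passed: Mir425 failed at 0.01, and Mir191 could not be tested in counts that ignore strand. The adjusted p of Mir425 ran from 3.65e-06 (DESeq2 size factors) to 0.0432 (no minimum count). All genes passing numbered 211 to 242, but out of differing numbers tested. With no minimum count 242 of 781 passed (31.0%), and with a minimum count of 50 217 of 291 passed (74.6%). Of 30 member levels under alternatives, replicates left out aside, 20 moved by less than 1 SD and 10 by more, 6 of these with all reads as the total. No paired analysis was possible because there is 1 group. Reads that matched several positions could not be placed, which limits comparisons with genes of several copies.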
